A study of Mus musculus with 2 samples.

Results

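Divergent upstream contigs are stretches of continuous read coverage that run away from a gene start on the opposite strand, outside every annotated gene. The tissue was whole brain at embryonic day 14.5, taken from mixed-sex C57BL/6J littermates, and its RNA was sequenced in 2 stranded polyadenylated RNA libraries of a single untreated group, so no condition was compared. The labels number the libraries as biological replicates 1 and 2. Which animals went into which library was not given, so the spread between libraries may be partly technical. The authors pooled both libraries into 1 list of 830022 contigs on mm9, with a level, a reproducibility value for which low is reproducible, and the bases of reads in each contig. Contigs were chosen by that reproducibility value and by position: a value of 0.1 or less, no overlap with an Ensembl 65 gene on either strand, any part within 2 kb upstream of a gene start on the opposite strand, and none within 10 kb beyond a gene end on their own strand. Of 424626 contigs at a value of 0.1 or less, 83480 overlapped no gene, 4778 of these lay in such a window, and 771 of those were left out for the gene end on their own strand. The remaining 4007 divergent contigs, 0.944% of the reproducible contigs, lay nearest to 3054 gene starts.

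Many vertebrate promoters, above all those in CpG islands, load RNA polymerase II in both directions. The polymerase that leaves upstream makes an antisense RNA, known as a promoter upstream transcript or upstream antisense RNA, which usually ends early at a polyadenylation signal and is degraded by the nuclear exosome. The U1 small nuclear RNP, which binds 5′ splice sites, protects transcripts from such early ends, and upstream antisense strands tend to hold fewer of its sites. A part of these transcripts is stable and polyadenylated, and some are long noncoding RNA genes that share a promoter with a protein-coding gene. In the embryonic brain, many genes of developmental transcription factors have such a partner.

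The level was proportional to the bases of reads per base of contig: in the 38224 contigs of the list above a level of 1, a level of 1 stood for a mean read depth of 58.0, with a range of 57.7 to 58.3. The expected counts of annotated genes summed to 103493289 in replicate 1 and 97539730 in replicate 2. The neuronal tubulin gene Tubb3 had a level of 2753 TPM in replicate 1 against 2640 TPM in replicate 2, and the other 6 brain markers between 24.2 and 862 TPM. Markers of other tissues varied widely. Those of liver and muscle were low, from 0.13 TPM for Ckm to 5.18 TPM for Afp, both in replicate 1. Those of skin, microglia and endothelium ran from 6.91 TPM for Csf1r to 95.7 TPM for Cldn5, both in replicate 1. The skin keratin gene Krt5 had 25.5 TPM in replicate 1 against 37.8 in replicate 2, near the brain marker Nes (24.2 against 33.7). Of the blood markers, Alas2 was the lowest, with 9.88 TPM in replicate 1 against 17.4 in replicate 2. The haemoglobin gene Hba-a2 reached 3946 TPM in replicate 1 against 5206 in replicate 2, and the bone and fibroblast collagen gene Col1a1 36.6 TPM in replicate 1 against 146 in replicate 2. Ibsp, of the same marker group as Col1a1, stood at 0.17 TPM in replicate 1 against 20.3 in replicate 2. The part of such tissue in the contig list was not tested.

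Promoters are shown because they are the sequence from which both transcripts leave. The first 4 belong to the protein-coding genes with the most reads in a divergent contig of 200 bases or more that began within 100 bases of the gene start, among genes found in the RefSeq table of promoters. The last 2 belong to the most abundant protein-coding genes of that table with a free upstream window and no divergent contig. Each runs 5′ to 3′ on the strand of the gene, from 250 bases before to 50 bases after the RefSeq start on GRCm38.p6. The divergent RNA thus has the sequence of the complementary strand and leaves towards the left. Capitals mark CG dinucleotides. RefSeq starts on this build and the gene starts of the mm9 annotation can differ, and no coordinates were carried between builds.
Med26: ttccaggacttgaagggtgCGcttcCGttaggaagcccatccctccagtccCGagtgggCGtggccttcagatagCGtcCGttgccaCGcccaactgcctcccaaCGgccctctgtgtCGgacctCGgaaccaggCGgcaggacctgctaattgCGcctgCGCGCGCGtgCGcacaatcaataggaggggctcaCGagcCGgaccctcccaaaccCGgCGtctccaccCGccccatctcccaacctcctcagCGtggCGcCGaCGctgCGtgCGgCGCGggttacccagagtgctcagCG
Bzw1: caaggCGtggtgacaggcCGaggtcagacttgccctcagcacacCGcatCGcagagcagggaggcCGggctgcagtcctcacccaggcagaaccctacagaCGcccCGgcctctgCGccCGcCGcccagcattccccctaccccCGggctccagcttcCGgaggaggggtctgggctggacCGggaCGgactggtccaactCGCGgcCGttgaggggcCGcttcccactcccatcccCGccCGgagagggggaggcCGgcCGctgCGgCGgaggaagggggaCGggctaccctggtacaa
Aak1: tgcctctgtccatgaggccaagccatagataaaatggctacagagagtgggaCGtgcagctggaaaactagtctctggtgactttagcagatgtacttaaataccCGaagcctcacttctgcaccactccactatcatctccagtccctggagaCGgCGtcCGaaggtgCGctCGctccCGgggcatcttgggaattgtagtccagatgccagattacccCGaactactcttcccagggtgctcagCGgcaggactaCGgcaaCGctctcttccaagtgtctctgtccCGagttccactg
Pomp: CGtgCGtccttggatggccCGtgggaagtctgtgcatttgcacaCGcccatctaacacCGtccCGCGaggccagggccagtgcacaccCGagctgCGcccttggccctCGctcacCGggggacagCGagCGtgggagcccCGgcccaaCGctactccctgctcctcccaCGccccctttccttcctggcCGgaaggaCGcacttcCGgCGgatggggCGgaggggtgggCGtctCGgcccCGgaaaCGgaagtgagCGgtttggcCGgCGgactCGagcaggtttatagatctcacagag
Tuba1a: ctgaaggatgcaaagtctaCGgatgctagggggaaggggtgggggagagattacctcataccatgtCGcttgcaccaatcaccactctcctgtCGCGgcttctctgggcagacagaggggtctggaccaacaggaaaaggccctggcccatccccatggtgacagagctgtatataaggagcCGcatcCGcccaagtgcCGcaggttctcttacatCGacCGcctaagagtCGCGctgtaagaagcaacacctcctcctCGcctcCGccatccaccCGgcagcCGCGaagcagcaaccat
Hba-a2: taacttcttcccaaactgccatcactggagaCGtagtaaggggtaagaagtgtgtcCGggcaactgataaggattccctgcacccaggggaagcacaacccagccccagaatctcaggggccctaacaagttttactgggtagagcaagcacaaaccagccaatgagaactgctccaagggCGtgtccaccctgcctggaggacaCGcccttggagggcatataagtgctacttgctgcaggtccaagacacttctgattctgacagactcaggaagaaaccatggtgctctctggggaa

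The Med26 promoter (chr8:72548261-72548560, minus strand), of a Mediator subunit gene, held 31 CG dinucleotides, with a CpG ratio of 0.938 (observed over expected from its C and G content). That of Bzw1 (chr1:58392648-58392947, plus strand), a regulator of translation initiation, held 25, with a ratio of 0.644. The promoter of Aak1 (chr6:86849034-86849333, plus strand), a kinase of clathrin-coated vesicles, held 13, with a ratio of 0.586, and that of the proteasome assembly factor Pomp (chr5:147860378-147860677, plus strand) held 29, with a ratio of 0.837. Without a divergent contig, the promoter of the alpha-tubulin gene Tuba1a (chr15:98953452-98953751, minus strand) held 16, with a ratio of 0.616, and the promoter of Hba-a2 (chr11:32296242-32296541, plus strand) held 4, with a ratio of 0.188. Thus 1 of the abundant genes without a contig had a ratio above that of Aak1, and the single promoters do not sort by the contig.

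The divergent contigs gathered at the gene start. Of the 4007, 593 began within 100 bases of the start, 474 over 100 to 200 bases and 271 over 200 to 300 bases, against 119 over 1900 to 2000 bases. The median distance was 642 bases, with 180 bases at the lower quartile and 1284 bases at the upper. The median distance was 862 bases upstream on the strand of the gene and 938 bases beyond gene ends. Upstream on the strand of the gene, 1625 contigs under the same filters included 105 within 100 bases and 69 over 1900 to 2000 bases. Beyond gene ends on the opposite strand, 1440 contigs included 112 within 100 bases and 74 over 1900 to 2000 bases. Per 1000000 bases of window free of genes and of gene end regions, divergent contigs numbered 88.2, against 40.4 upstream on the strand of the gene and 34.1 beyond gene ends. Contigs that overlap a gene were left out of every window. Upstream coverage on the strand of the gene that ran unbroken into the gene was thus not counted, which can lower the 40.4 and the 105. How far it did was not tested. Leaving out contigs overlapped by a reproducible contig of the other strand, 2864 divergent contigs remained, with 238 within 100 bases, 263 over 100 to 200 bases, 105 over 1900 to 2000 bases and a median distance of 839 bases. The same step left 1139 contigs upstream on the strand of the gene, with 65 within 100 bases, 53 over 1900 to 2000 bases and a median of 925 bases. Beyond gene ends it left 809, with 45 within 100 bases, 51 over 1900 to 2000 bases and a median of 1022 bases. The gathering at the start was thus weaker among divergent contigs without overlap. Per 1000000 free bases these numbered 63.0, against 28.3 upstream on the strand of the gene and 19.2 beyond gene ends. These counts come from 1 pooled list, so no spread between libraries stands behind them.

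**Figure D1:**
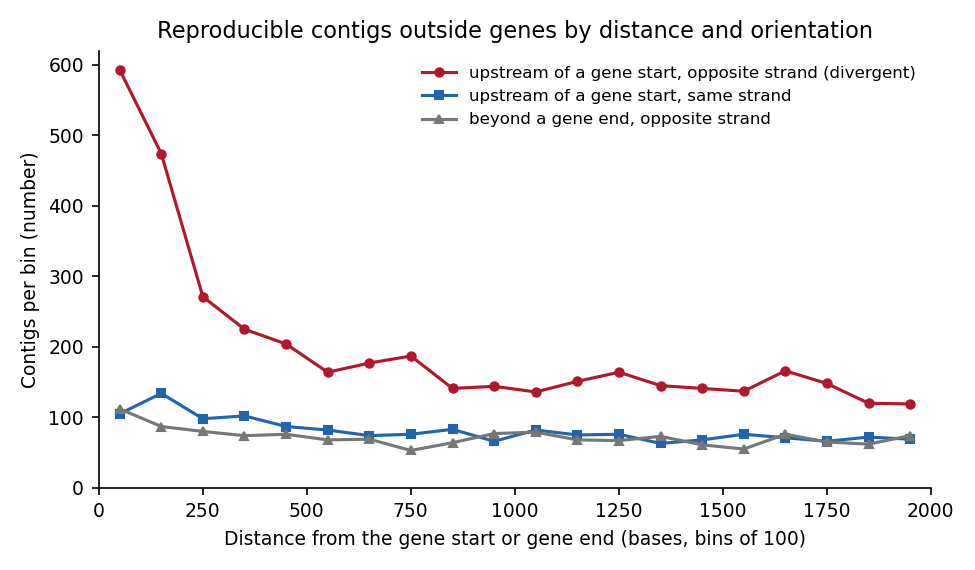
Number of reproducible contigs outside genes (y axis) in bins of 100 bases of distance from the gene start or gene end (x axis), for divergent contigs (red circles), contigs upstream on the strand of the gene (blue squares) and contigs beyond gene ends on the opposite strand (grey triangles). Divergent contigs number 593 in the first bin and 119 in the last, while the other windows stay between 53 and 134 per bin.

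Strand libraries can carry a small part of their reads on the wrong strand, so overlap with the other strand was counted. Of the divergent contigs, 1143 (28.5%) were overlapped by a reproducible contig of the other strand, and 2864 were not. The share was not higher than in the other windows under the same filters. It was 486 of 1625 (29.9%) upstream on the strand of the gene and 631 of 1440 (43.8%) beyond gene ends. The values below are for divergent contigs only. Those overlapped lay closer to the start, at a median of 203 bases against 839 bases for the rest, and had a median level of 0.104 against 0.079. The level of an overlapped divergent contig was a median of 0.180 of the highest overlapping contig. It exceeded that contig in 225 cases and was 0.02 of it or less in 152 cases. The part of wrong-strand reads in these contigs was not tested.

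Most divergent contigs were short and thinly covered. The median length was 648 bases, and the median level 0.084, which is a mean read depth of 4.87 and 28.5 read lengths of 101 bases in all. Between the quartiles, length ran from 446 to 1036 bases and level from 0.060 to 0.132. The level lay under that of contigs overlapping genes on the gene strand, exons and introns alike, whose median was 0.109 over 314231 contigs. Those contigs also held more reads, a median of 55.9 read lengths. Contigs over 10 kb from any gene had a nearby median level, 0.085 over 44313 contigs. All these classes passed the same limit on the reproducibility value. The reproducibility value went with the reads in a contig, but not strictly. Contigs at 0.09, the last value inside the limit, held 12.2 to 14.2 read lengths, contigs at 0.08 held 11.5 to 12.7, and contigs at 0.13, the first value outside, 9.91 to 12. Just inside the limit lay contigs at Styk1 (37 bases, level 0.580), Wdr72 (42 bases, level 0.553) and the growth factor gene Fgf8 (45 bases, level 0.525). Just outside lay contigs at Pigk (13 bases, level 1.53), Olfr664 (16 bases, level 1.17) and Polg2 (29 bases, level 0.614). The limit thus gives a lower edge to the levels of short contigs.

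The 15 highest levels were led by very short contigs, of which 10 were 100 bases or shorter. A contig of 21 bases at the small nuclear RNA gene Gm25044 had a level of 41.8, and a contig of 20 bases at the Wnt receptor gene Fzd5 a level of 21.7. A contig of 187 bases at Ddx42, an RNA helicase gene, had a level of 12.4 and lay 29 bases from the start. The others were at Gm23916, Kif20b, ENSMUSG00000091052, Pinx1, 1700021F05Rik, ENSMUSG00000086085, Gm11487, Tmprss5, Gm24525, ENSMUSG00000085607, Hrh2 and Tspyl2, with levels from 5.08 to 10.7. Whether reads were placed at a single site there was not given in the sources used here. In GENCODE vM21, the processed pseudogene Tubb4b-ps1 began 1509 bases upstream of Gm24525, on the opposite strand. The contig at Gm24525 was 1558 bases long and lay 1446 bases from the start on mm9. Their overlap was not measured, since the builds differ. Spliced reads were uneven between the first and second deposited value at Gm25044 (3 and 35) and Kif20b (1 and 95). They were 34 and 13 at Ddx42, 10 and 5 at Pinx1, and 115 and 158 at Tspyl2. The rest of the 15 had no reproducible junction. Over all lengths, the 99 divergent contigs of 100 bases or less had a median level of 0.743, against 0.082 for the 3858 of 200 bases or more.

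**Figure D2:**
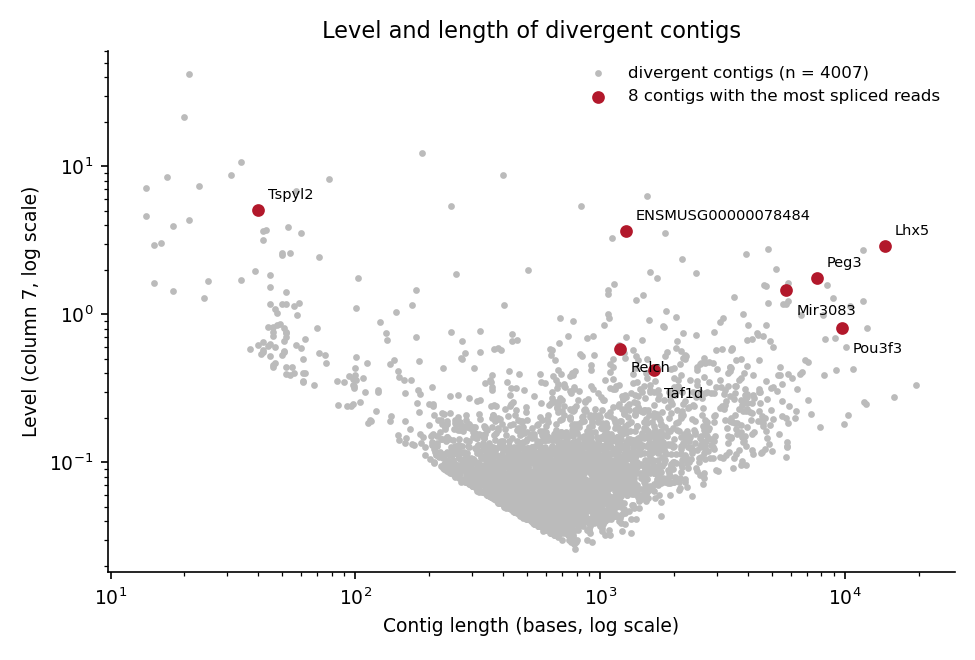
Level (y axis, column 7 of the contig list, where 1 is a mean read depth of 58.0) against length in bases (x axis) of the 4007 divergent contigs, both on log scales. Grey points are all divergent contigs and red points the 8 with the most spliced reads, named by the gene at whose start they lie. The lower left edge is set by the limit on the reproducibility value, and the longest contigs with high levels lie at the upper right, such as Lhx5 at 14477 bases and a level of 2.90.

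Long divergent contigs carried most of the reads. The 342 contigs of 2000 bases or more (8.54% of all) held 63.7% of the bases of reads in divergent contigs. Of these, 60 were 5000 bases or longer and 12 were 10000 bases or longer. The longest lay at Celf4, a neuronal RNA-binding protein gene (19499 bases, level 0.335), Asic2, an acid-sensing ion channel gene (15796 bases, level 0.274), the LIM homeobox gene Lhx5 (14477 bases, level 2.90), Mboat2 (12313 bases, level 0.812) and the receptor gene Gpr27 (12115 bases, level 0.247). Reproducible contigs of the other strand overlapped those at Asic2 (highest level 0.365), Lhx5 (2.37) and Gpr27 (8.47), but not those at Celf4 and Mboat2. At Gpr27 the other strand was thus far higher than the divergent contig. Of the bases of reads in all divergent contigs, 50% lay at 87 of the 3054 gene starts. Lhx5 alone held 4.45% of them, with 24121 read lengths, and Med26 held 3.41%, with 18500. Next came Irx2, an Iroquois homeobox gene, with 8627 read lengths in 2 contigs, Bzw1 with 8295, and the imprinted gene Peg3 with 7789. The median gene start held 40.7. At Lhx5 (chr5:120867369-120881845, minus strand, mm9), the contig began 50 bases from the start. The gene itself stood at a first deposited value of 2.70 RPKM and a second of 1.06 RPKM, so a gene with a low level had the most divergent reads. At Med26 (chr8:75072254-75084083, plus strand, mm9), the contig of 11830 bases had a level of 2.72, and the gene stood at 1.499 and 2.14 RPKM. A contig of the other strand at a level of 0.778 overlapped that contig.

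Starts of expressed genes had a divergent contig in a larger share, given as counts without a test. A gene start was eligible when at least 200 bases of its 2 kb window were free of genes and of gene end regions. Of 14742 eligible protein-coding starts, 2701 (18.3%, exact 95% interval 17.7 to 19.0%) had a divergent contig. At 1 RPKM or more in both deposited values, 1946 of 6265 (31.1%, 29.9 to 32.2%) had one, against 755 of 8477 (8.91%, 8.31 to 9.53%) of the other protein-coding starts. The share was 1.72% for genes at 0 RPKM, 4.43% over 0 to 0.1 RPKM, 17.3% over 0.1 to 1 RPKM and 28.7% over 1 to 5 RPKM. Above that it changed little: 33.5% over 5 to 10 RPKM, 35.0% over 10 to 50 RPKM and 36.1% (25.9 to 47.4%) above 50 RPKM. The intervals cover counting error only. Counting only contigs that no reproducible contig of the other strand overlapped, the shares were 22.0% at 1 RPKM or more in both and 7.08% in the rest. Among other biotypes, 13.7% of 153 processed transcript genes, 4.84% of 786 lincRNA genes, 4.66% of 408 miRNA genes and 1.49% of 606 unprocessed pseudogenes had a divergent contig.

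**Figure D3:**
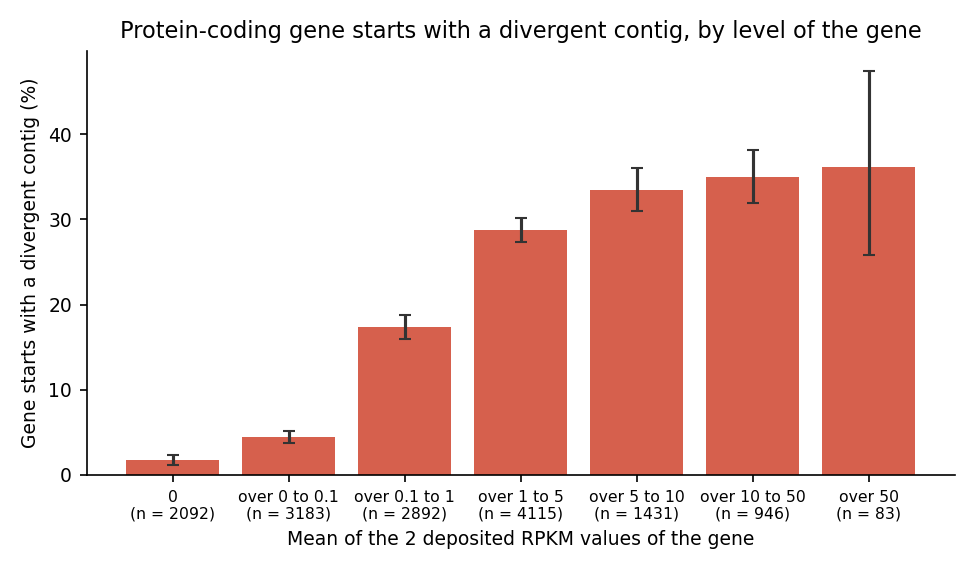
Share of eligible protein-coding gene starts with a divergent contig (y axis, %) by the mean of the gene's 2 deposited RPKM values (x axis, with the number of starts). Bars are shares and whiskers exact 95% binomial intervals; the share climbs to 28.7% over 1 to 5 RPKM and lies between 33.5 and 36.1% above 5 RPKM.

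The level of the divergent contig showed little relation to the level of the gene across contigs that passed the reproducibility limit, each of which held at least 11.5 read lengths. Across the 4007 contigs, Pearson's r between log2 level and log2 RPKM (with pseudocounts of 0.01 and 0.1) was -0.02 and Spearman's rho 0.04, a description over points that share libraries and depth. Among the 3434 contigs of 200 bases or more at protein-coding genes, the median level was 0.076 (exact 95% interval 0.073 to 0.079) at genes under 1 RPKM, 0.084 (0.082 to 0.086) at 1 to 10 RPKM, 0.087 (0.081 to 0.093) over 10 to 50 RPKM and 0.082 (0.061 to 0.109) above 50 RPKM, where 45 contigs lay. The intervals under 1 RPKM and at 1 to 10 RPKM do not overlap. They cover the spread over contigs of 1 pooled list and not that between libraries.

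Among the transcription factors that pattern the brain, 10 of 15 eligible starts of forebrain factors had a divergent contig (66.7%), 9 of them among 13 genes at 1 RPKM or more. The forebrain homeobox gene Otx2 had the highest, with levels of 0.397 and 0.301 in contigs 1995 and 1022 bases from the start. Contigs also lay at the cortical regulators Emx1 (0.077 and 0.064), Eomes (0.087 and 0.078), Lhx2 (0.072), Fezf2 (0.068) and Tbr1 (0.057). Of midbrain and hindbrain factors, 4 of 14 had one, led by Irx2 at levels of 1.94 and 1.14. Proneural and other bHLH factors had one at 8 of 20 starts, among them the Notch targets Hey1 (0.287) and Hes1 (0.079 and 0.060), and the neuronal differentiation factors Neurod2 (0.108 and 0.077) and Neurod6 (0.062). Sox and POU factors had one at 5 of 16 starts, with Pou3f3 at 0.809 and Pou3f1 at 0.426, and Dlx, Lhx, Nkx and Zic factors at 2 of 15, Lhx5 and Nkx6-1 (0.120). All of these shares stand beside 18.3% of all eligible protein-coding starts and 31.1% of those at 1 RPKM or more.

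Genes of general cell functions also had divergent contigs. The counts below stand beside 18.3% of all eligible protein-coding starts, 31.1% of those at 1 RPKM or more and 1.72% of those at 0 RPKM. Among genes at 1 RPKM or more, synaptic and channel genes (31.8% of 22) and chromatin regulators (30.8% of 26) lay near that share. For splicing and RNA-binding proteins the count was 10 of 18, with Hnrnpu, a nuclear matrix RNA-binding protein, at a level of 0.351 and the splicing regulator Tra2b at 0.226. For proteasome subunits it was 9 of 21, with Psmb6 at 0.127 and Psmd7 at 0.119, for aminoacyl-tRNA synthetases 5 of 12, with Nars at 2.95 in a contig of 15 bases and Mars at 0.262, and for genes named Rpl or Rps, most of them ribosomal proteins, 18 of 49, with Rps12 at 0.713 and Rpl3 at 0.317. Chromatin regulators had one at 8 of 28 starts, with the BAF complex ATPase gene Smarca4 at 0.166 and the Polycomb methyltransferase gene Ezh2 at 0.147. Synaptic and channel genes had one at 7 of 22, led by the postsynaptic scaffold gene Shank3 at 0.475 over 7072 bases, and cytoskeleton and growth cone genes at 4 of 16, led by Gap43 at 0.581 and Stmn1 at 0.180. Cell cycle genes had one at 3 of 16 starts (18.8%), led by Kif11 at 0.207 and Cdk6 at 0.202, and replication and repair genes at 3 of 18 (16.7%), among them Parp1 at 0.088. Replication-dependent histones had 2 of 23, Hist1h4j at 0.175 and Hist2h4 at 0.073. Olfactory receptors had 9 of 784 (1.15%), led by Olfr1361 at 0.551 and Olfr544 at 0.193. Genes of blood, liver, skin and muscle had 0 of 12, which allows a share of up to 26.5% (exact 95% bound). Of the small RNA host genes, 6 of 12 symbols were matched and only Snhg11 was eligible, with a contig at 0.130.

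**Figure D4:**
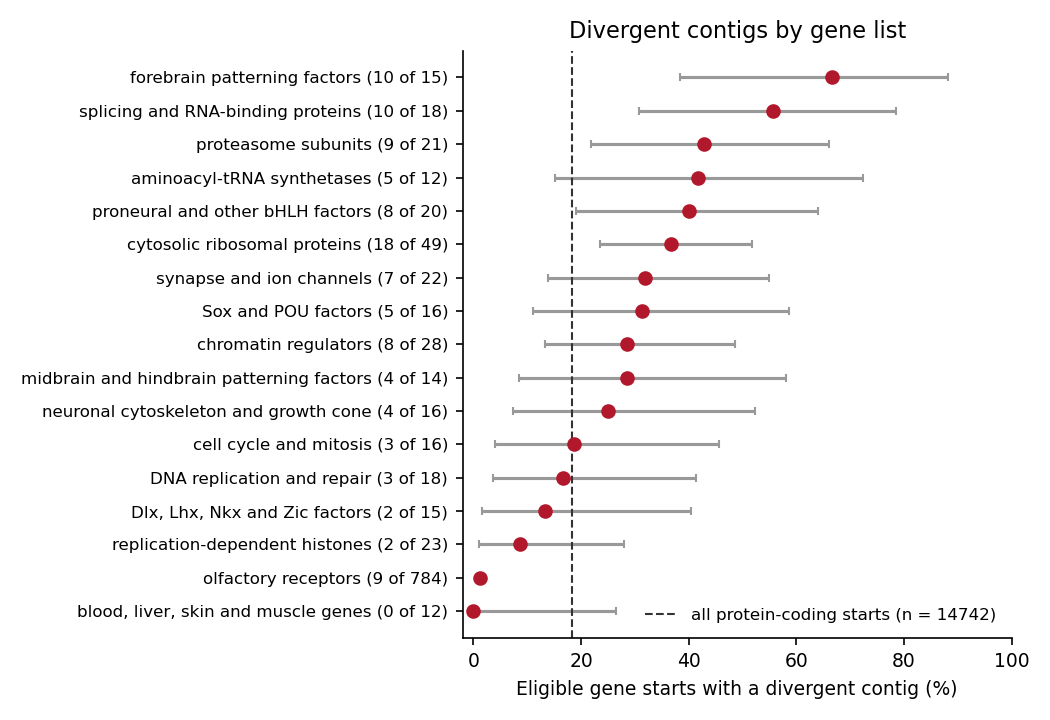
Share of eligible gene starts with a divergent contig (x axis, %) for each gene list with 10 or more eligible starts, with the counts beside the names. Points are shares, whiskers exact 95% binomial intervals, and the dashed line the 18.3% of all 14742 eligible protein-coding starts; forebrain patterning factors lie highest at 66.7%, and most intervals are wide and overlap.

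Some divergent contigs were spliced, but the share among other contig classes was not counted, so no comparison can be made. The number also followed the limit on the junction value: with no limit, 1436 contigs held a junction end. At a junction reproducibility value of 0.1 or less, 191 of 4007 (4.77%) held at least 1 end of a junction on their strand, with 303 junctions and 13085 spliced reads in all. For 24 contigs a junction ended inside an Ensembl 65 gene on the strand of the contig, and for 167 none did. Above 500 bases, the spliced share rose with length, from 38 of 1653 over 500 to 1000 bases (2.30%) to 24 of 60 over 5000 bases (40.0%). Among contigs of 500 bases or less it was 50 of 1297 (3.86%). A longer contig also has more bases in which a junction end can fall. The contigs with the most spliced reads lay at the miRNA gene Mir3083, with 1030 in the first and 1040 in the second deposited value, and at the POU factor gene Pou3f3, with 1006 and 561. At ENSMUSG00000078484 there were 775 and 483, and at Lhx5 388 and 333 over 15 junctions. The contig at Pou3f3 lay 1663 bases from the start and 1 of its 7 junctions ended inside an annotated gene. Tspyl2 had 115 and 158 spliced reads, Peg3 118 and 142, Taf1d 97 and 118, and Relch 85 and 127. The single junction at Tspyl2 and 1 of 2 at Taf1d ended inside an annotated gene. These values are read counts of the 2 libraries, not tied to a replicate number.

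De novo transcript models of the authors covered at least 50% of the bases of 1533 divergent contigs (38.3%) with exons. The same share for other contig classes was not counted. These made up 1373 models, of which 1333 overlapped no Ensembl 65 gene on their strand, with a median span of 988 bases. Their median level was 0.017 RPKM, and 1270 of them were above 0 in both deposited values. The model at Lhx5 stood at 1.74 RPKM in the first and 1.37 RPKM in the second value, and that at Hrh2, a histamine receptor gene, at 0.983 and 1.49 RPKM. These were the 2 models at a mean of 1 RPKM or more, and 0 of 2 were 2-fold or more apart, against 19.0% of all 4786 models at that level. At a mean of 0.1 RPKM or more, 3 of 44 were 2-fold or more higher in the first value, against 7.25% of all 32995 models.

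Some gene starts with a divergent contig faced a gene annotated later; overlap of the contig with that gene was not measured, since the builds differ. In GENCODE vM21, 489 genes with identifiers absent from the mm9 gene table began within 2 kb upstream of an eligible gene start, on the opposite strand. Of these, 149 faced a start with a divergent contig, at a median of 222 bases between the starts, and 340 faced a start without one, at a median of 283 bases. These counts stand beside 3099 of all 24032 eligible gene starts (12.9%) that had a divergent contig, so starts without one are far more numerous. The 149 of 489 make a larger share than 12.9%, without a test. They count facing genes and not starts, and the level of the gene at the start was not matched. Among protein-coding starts at 1 RPKM or more in both values, 31.1% had a divergent contig. The deposited mm10 gene tables held 43 of the 149 and 136 of the 340. Their median levels were 0.230 TPM with a contig and 0.185 TPM without, and 9 of 43 against 33 of 136 reached a mean of 1 TPM. The counts at 1 TPM or more thus lay close together as shares, without a test.

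The highest was 2610306M01Rik, a noncoding gene 77 bases from the start of Aak1, with 11.96 TPM in replicate 1 against 11.4 in replicate 2. Next came 2900009J06Rik at Ccnt2, a cyclin of transcription elongation, with 4.56 and 3.61 TPM, and Gm20554 at Irx2, with 3.09 and 4.84 TPM. Gm29543 at the synaptic vesicle gene Sv2c had 2.80 and 2.54 TPM, and 2410022M11Rik at Zmym5 had 2.80 and 1.85 TPM. The other 4 at a mean of 1 TPM or more were 2600014E21Rik at Gm13652 (2.17 and 1.00 TPM), Gm35025 at Celsr3 (1.47 and 1.15 TPM), Gm38300 at Hnrnpu (0.900 and 1.26 TPM) and 2810414N06Rik at Edem3 (1.22 and 0.930 TPM). Of these 9, 2600014E21Rik was 2-fold or more higher in replicate 1, with a log2 ratio of 1.04, and none was so in replicate 2. Among all 15240 annotated genes at that level, 5.89% were 2-fold or more apart, and 1.71% were higher in replicate 1. With 1 library against 1, these ratios have no p-value. The gene at Aak1 was the highest of the 9 in both replicates, while Gm20554 lay above 2900009J06Rik in replicate 2 only.

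Promoters of genes with a divergent contig had a higher median CpG ratio. RefSeq promoters were matched by symbol or older symbol for 11619 of 14372 eligible protein-coding starts outside chromosome 18 (80.8%); promoters of chromosome 18 were not used here. The median CpG ratio was 0.808 for the 2125 genes with a divergent contig, against 0.480 for the 9494 without one and 0.384 for all 32851 promoters of the table. Much of this gap went with the level of the gene. At 1 RPKM or more in both values, the median was 0.837 for 1572 genes with a contig and 0.771 for 3451 without. Within single bins of level it was 0.826 against 0.758 over 1 to 5 RPKM, 0.842 against 0.791 over 5 to 10 RPKM and 0.851 against 0.782 over 10 to 50 RPKM. Above 50 RPKM it turned round, with 0.779 for 23 genes with a contig and 0.799 for 39 without.

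Read the other way, 18.1% of 149 expressed genes with a CpG ratio under 0.2 had a divergent contig, 15.8% of 323 from 0.2 to 0.4, 25.3% of 600 from 0.4 to 0.6 and 28.3% of 1490 from 0.6 to 0.8. The share was 35.6% of 1728 from 0.8 to 1 and 41.7% (38.1 to 45.4%) of 733 at a ratio of 1 or more. Promoters with a contig that began within 300 bases had a median ratio of 0.866, and those whose contigs began farther away 0.815.

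**Figure D5:**
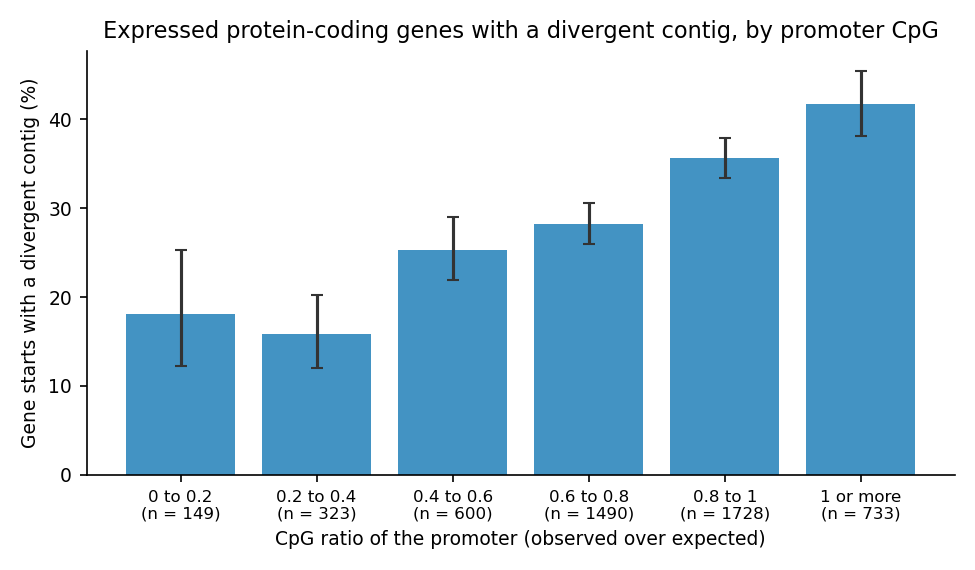
Share of expressed protein-coding gene starts (1 RPKM or more in both deposited values) with a divergent contig (y axis, %) by the CpG ratio of the RefSeq promoter (x axis, with the number of genes). Bars are shares and whiskers exact 95% binomial intervals; shares run from 15.8% at a ratio of 0.2 to 0.4 up to 41.7% at 1 or more.

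Short motifs were searched in the 250 bases before the start, on each strand, and a match is only a match of letters. Of the 1572 expressed genes with a contig, 806 had none that began within 300 bases. For these the searched bases lie outside the contigs, if the starts of both builds agree. The shares therefore describe promoters and not the divergent RNA. GGGCGG, the core of the GC box, was on the strand of the divergent RNA in 44.8% of the expressed genes with a contig, against 36.4% of those without and 19.5% of all promoters. On the strand of the gene it was in 43.7% with a contig, 40.9% without and 20.5% of all promoters. TATAAA, the TATA box, was on the divergent strand in 1.78% with a contig, 3.01% without and 6.26% of all, and on the gene strand in 2.99%, 4.03% and 7.59%. AATAAA, the main polyadenylation signal, was on the divergent strand in 3.12% with a contig, 5.01% without and 9.49% of all, and on the gene strand in 5.15%, 6.32% and 10.4%. Only 1 of these motifs can begin at a given base, though matches that begin at different bases can share letters. A match to the 5′ splice site, GGTAAG, was on the divergent strand in 2.23% of genes both with and without a contig and 3.72% of all, and on the gene strand in 2.48%, 3.13% and 4.26%. TATAAA and AATAAA thus had lower shares in promoters with a contig, which are also the richer ones in G and C (64.0% against 61.3%).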

How the data were processed

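Contig levels were deposited by the authors as a signal for both libraries pooled, with a reproducibility fraction and a score that holds the bases of reads. The deposited mm9 gene and model tables give 2 RPKM values each, not tied to a replicate, and the first and second are named so. Junction read counts were deposited with a reproducibility fraction and 1 count per library. The deposited mm10 gene tables hold expected counts and TPM per replicate and name GENCODE M4 in the files' own notes. The aligner and caller are not given in the sources used here. Ensembl 65 genes were listed on 2 lines each, and 37310 of 74620 lines were kept, of which 32620 matched a symbol in GENCODE vM21.

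The members and the gene lists were chosen with earlier results of these data known. Members named are the 15 highest, the 5 longest, the 8 with the most spliced reads, the 2 highest of each list, 3 on each side of the limit, and genes at 2-fold between libraries; other forebrain, bHLH and top gene starts were named after their values were seen. A few genes that the rule names are counted but not reported here. No feature was tested, since 1 group of 2 libraries leaves no contrast. Ratios between replicates are log2((replicate 1 + 0.1)/(replicate 2 + 0.1)). Gene shares carry exact Clopper-Pearson 95% intervals. Expected counts were rounded for the scale factors of edgeR 4.0.16 and DESeq2 1.42.0. Computations ran in Python 3.11.15 with pandas 2.3.3, numpy 2.4.6, scipy 1.17.1 and matplotlib 3.10.9, and in R 4.3.3. The interval rule and the ratio were tested on simulated data. Sequences of the contigs themselves are not shown, because no mm9 genome was used here.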

Additional observations from a re-analysis of the deposited data

How the results depend on the processing

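The number of divergent contigs, 4007, followed the filters: it was 2157 at a reproducibility value of 0.01 or less, 9814 with no limit, 2580 in a 1 kb window, 1767 in a 500 base window, and 2254 with 50 kb left out beyond gene ends. Under the other 7 alternatives it lay within 1.5 times. The median length ranged from 309 to 980 bases, the median level from 0.053 to 0.115 and the median distance from 155 to 839 bases. The excess over contigs upstream on the gene strand, 2.18-fold per free base, stayed between 1.60 and 2.98 under all 11 alternatives. All of these left out contigs that overlap a gene, so none counted upstream coverage that ran into the gene on its strand. The share of expressed starts, 31.1%, was 33.8% with 1000 free bases, 27.1% at 0.1 RPKM, 36.5% at 10 RPKM, 27.4% with mm10 levels, and 15.5% for contigs within 300 bases. With the gene level from 1 replicate of the mm10 table it was 26.8 to 27.2%. Spearman's rho was 0.05 to 0.06 over 3868 contigs with the gene level from 1 replicate of the mm10 table and the contig level pooled. For contigs of 200 bases or more, with the mm9 gene level, it was 0.082. Spliced contigs numbered 1436 with no limit and 75 with both ends inside contigs of 1 gene start. Of the later genes, 0 were 2-fold apart with a pseudocount of 1, 9 of 43 without a filter, and 0 at a mean of 5 TPM. The CpG difference was 0.42 against all promoters, 0.066 against expressed genes without a contig, and 0.052 among genes with 1 promoter listed. The cause of these shifts was not tested, apart from the smaller windows and filters themselves.

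Alternatives on the other strand, the orientation, contig classes, 300 bases, 200 bases, 10 spliced reads and 1 promoter were chosen after seeing the data. No paired analysis was possible because both libraries belong to 1 group. Depth limits the list: the least covered divergent contig held 11.5 read lengths over both libraries.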
